A study of Mus musculus with 16 samples.

Results

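Potassium channel genes were taken as all genes whose symbol in the array annotation begins with Kcn, which gave 77 of the 17097 genes measured by probe sets assigned to a single gene. They were represented by 141 probe sets, and 39 of the genes had several; for each gene the probe set with the highest mean over the 16 arrays was used. A gene was counted as expressed in a tissue when its mean there lay above the median of the whole table, 3.79 on the log2 scale, and 37 of the 77 genes met this in at least 1 tissue.

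The arrays came from mice lacking NM1 (nuclear myosin 1, an isoform of the motor protein encoded by Myo1c), labelled knock-out (KO), and from wild-type (WT) mice. There were 6 groups: WT lungs, KO lungs, WT heart and KO heart with 3 arrays each, and WT and KO skin fibroblasts, which were derived from the mice, with 2 arrays each. Lungs and heart came from the same 6 mice (WT 1592, 1624 and 1593; KO 1602, 1603 and 1586), and the fibroblasts carried other mouse numbers (WT 1571 and 1623; KO 1584 and 1550). Different numbers were taken to be different animals; the labels give no strain, age or sex, no culture conditions for the fibroblasts, and not which piece of Myo1c the KO lacks. The series asks what loss of NM1 does to transcript levels in these tissues.

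Potassium channels let potassium leave or enter cells along its gradient and so set the resting membrane potential and end the action potential. The voltage-gated (Kv) and ether-a-go-go channels open on depolarization, the inward rectifiers (Kir) hold the resting potential, the two-pore channels (K2P) carry background current, and the SK and BK channels open with calcium. Many of these pores are joined by small accessory subunits, among them the Kv beta, KChIP, MinK and BK beta proteins, which change their gating or their transport to the membrane. In heart muscle they shape repolarization, and in epithelia such as that of the lung they support the secretion and absorption of salt and water.

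The tissue labels were checked against marker genes. The mean of 3 alveolar type II markers was 12.8 to 13.2 in the 6 lungs arrays and 4.31 or less in the others. That of 7 ventricular muscle markers was 12.3 to 12.4 in the 6 heart arrays. It was 4.76 to 7.65 in the lungs arrays and 3.59 or less in the fibroblast arrays. The mean of 5 fibroblast markers lay between 9.93 and 10.7 in the 4 fibroblast arrays and reached 7.88 elsewhere. Over its 4 probe sets, which do not separate isoforms, Myo1c averaged 8.0 ± 0.41 (SD, n = 3) in WT and 6.65 ± 0.40 in KO lungs. It was 6.72 ± 0.11 and 5.97 ± 0.04 in heart, and 7.67 ± 0.20 and 6.25 ± 0.01 (n = 2) in fibroblasts. Markers of other cell types were unevenly spread within groups. A mean of 5 atrial muscle markers was 10.3, 9.13 and 10.5 in WT hearts 1592, 1624 and 1593, and 4.95, 9.95 and 5.66 in KO hearts 1602, 1603 and 1586. A mean of 4 adipocyte markers was 5.97 in WT lungs 1592, 8.03 in KO lungs 1603 and 8.51 in KO lungs 1586, against 3.40 or less in the other 3 lungs. In the same 3 lungs the atrial mean was 8.51, 8.77 and 8.0, against 5.35 to 6.56. KO heart 1602 also stood apart in its whole distribution, with an upper quartile of 5.63 against 6.17 or more in the other 5 hearts.

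Of the 77 Kcn genes, 23 were expressed in lungs (29.9%), 23 in heart (29.9%) and 14 in skin fibroblasts (18.2%), whereas 51.6%, 49.1% and 48.5% of all 45037 probe sets lay above the same level. Of the 37 genes expressed anywhere, 11 passed the level only in heart, 9 only in lungs and 2 only in fibroblasts. A further 3 were shared by lungs and heart, 3 by lungs and fibroblasts and 1 by heart and fibroblasts, and 8 passed in all 3 tissues. The level is a description of these arrays, not a limit of detection, and some genes sit close to it. In lungs Kcnk13 was just inside at 3.79 and Kcnk5 just outside at 3.72. In heart Kcnv2 was inside at 3.96 and Kcnc4 outside at 3.74, and in fibroblasts Kcnip3 was inside at 3.84 and Kcnq5 outside at 3.76. The other 40 genes passed in no tissue, with single arrays between 2.19 and 5.11. Among them were Kcnj2, a principal inward rectifier of ventricular muscle (tissue means 2.75 in lungs, 3.13 in heart and 3.07 in fibroblasts), and Kcnma1, the BK pore of smooth muscle (2.76, 2.73 and 2.70). Kcna3, a channel of T cells, was also low (3.04, 3.04 and 2.88). A single array signal does not tell a silent gene from a probe set that responds poorly, so these low values are not evidence of absence.

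**Figure D1:**
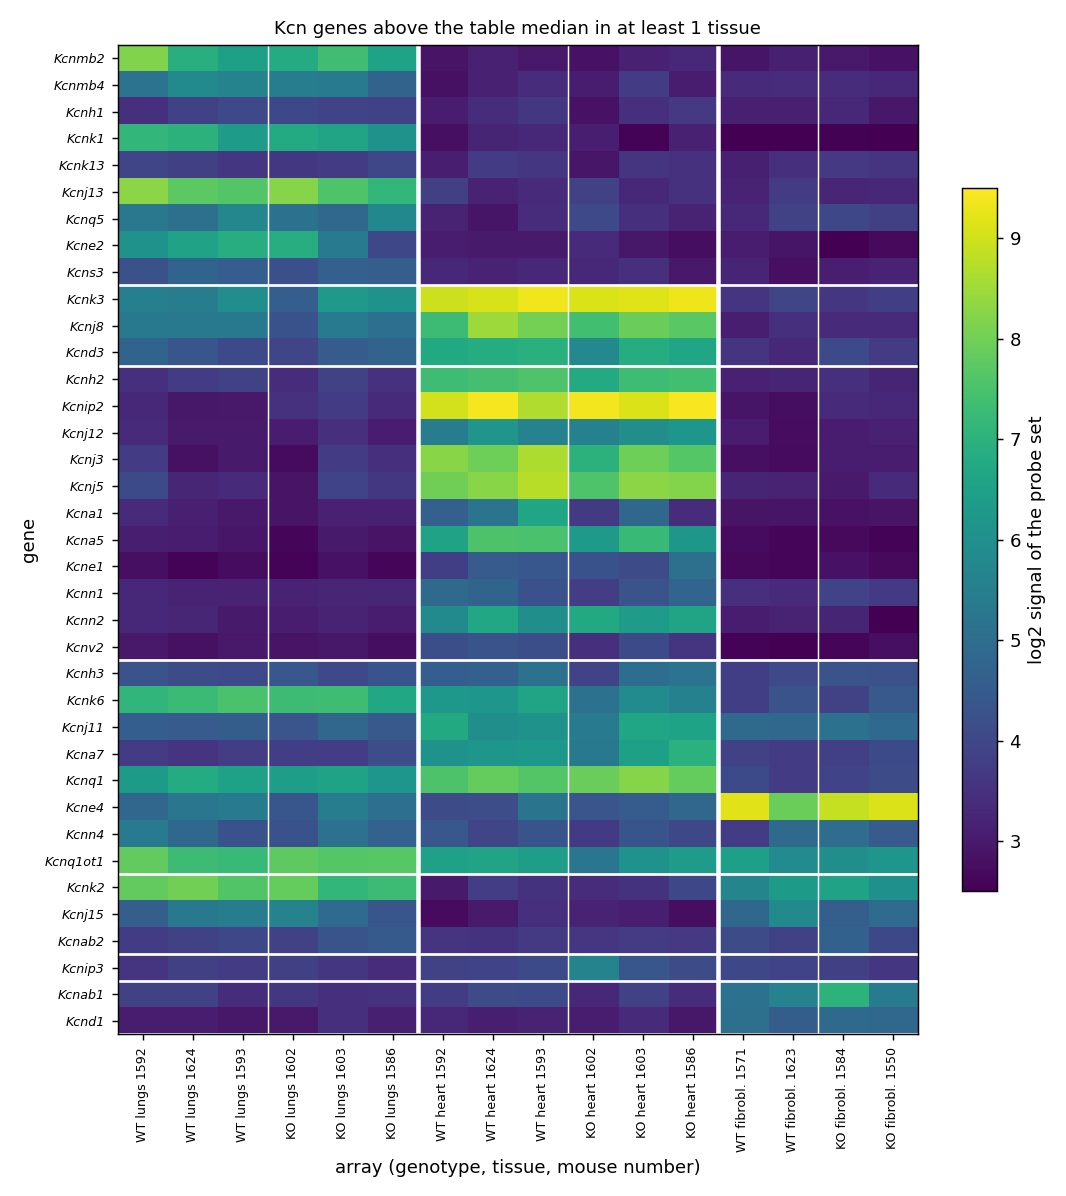
Log2 signal of the 37 Kcn genes above the table median in at least 1 tissue (rows, grouped by the tissues in which they passed) on each of the 16 arrays (columns, by tissue, genotype and mouse number). Colour should be compared along a row, since probe sets of different genes do not respond alike. By the grouping rule, the 11 genes of the heart block must have their highest tissue mean in heart. Single KO hearts are dim for Kcna1 and Kcnv2.

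By channel family, the accessory and pore subunits were divided unevenly among the tissues. Of 9 K2P genes, 5 were expressed in lungs, 2 in heart and 2 in fibroblasts. Of 15 Kir genes, 4, 5 and 2 were expressed, and of 7 Kv1 genes 1, 3 and 1. Of 4 KChIP genes, Kcnip2 and Kcnip3 passed in heart, and Kcnip3 also in fibroblasts. The BK beta subunits Kcnmb2 and Kcnmb4 passed only in lungs, while the pore gene they modify, Kcnma1, passed nowhere. None of 3 Kv3 genes and neither of the Slo2 and Slo3 genes passed in any tissue.

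The comparison of WT lungs with WT heart asks which channels distinguish the organs. It was made over all 77 genes without a filter on level, so that no gene entered only through the tissue where it was high. In limma, with Benjamini-Hochberg adjustment over all 45037 probe sets, a gene was called at an adjusted p under 0.05. Here 21 Kcn genes (27.3%) were lower in lungs than in heart, against 15.2% of all probe sets. Another 12 (15.6%) were higher in lungs, against 18.9% of all probe sets. In this and the other comparisons the shares are not built alike. Each Kcn gene counts by its probe set with the highest mean, and the background takes every probe set, also those without a gene. The median difference over the 77 genes was -0.15, against -0.02 over all probe sets. In organs made of many cell types, fewer cells of a type and less RNA per cell cannot be told apart.

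Kcnip2 and Kcnj13 stood at the 2 ends of this comparison. Their promoters are printed to show the DNA before the start sites of the genes with the greatest difference in each direction. Both are the 250 bases before the transcription start in RefSeq (GRCm38.p6), written 5′ to 3′ on the gene's strand. For Kcnip2, at chr19:45816064-45816313 on the minus strand, capitals mark the CG pairs. For Kcnj13, at chr1:87394730-87394979 on the minus strand, capitals mark the motif TATAAA.
Kcnip2: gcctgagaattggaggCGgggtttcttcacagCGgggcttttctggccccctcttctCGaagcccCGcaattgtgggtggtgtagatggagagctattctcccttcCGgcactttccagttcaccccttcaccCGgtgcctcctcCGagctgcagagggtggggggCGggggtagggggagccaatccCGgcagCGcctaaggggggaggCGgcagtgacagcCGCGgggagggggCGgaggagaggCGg
Kcnj13: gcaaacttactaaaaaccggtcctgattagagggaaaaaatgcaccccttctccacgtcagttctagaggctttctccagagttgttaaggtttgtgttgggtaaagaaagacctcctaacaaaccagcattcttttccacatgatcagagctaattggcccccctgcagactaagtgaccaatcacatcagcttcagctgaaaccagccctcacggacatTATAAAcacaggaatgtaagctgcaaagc
The Kcnip2 window held 15 CG pairs and no TATAAA on either strand, and the Kcnj13 window held 3 CG pairs and TATAAA, whose first base lies 29 bases before the start. TATAAA on either strand occurred in 12.4% of 32851 RefSeq promoters of this length, and the median promoter held 6 CG pairs. Of the Kcn genes, 59 of 77 matched the promoter table, with 84 promoters, of which 3 held TATAAA. It was found in 0 of 14 promoters of the genes higher in heart (13 of 21 matched) and in 1 of 17 of the genes higher in lungs (11 of 12 matched). These matches describe letters in the windows and do not show use of a site.

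The genes higher in heart included carriers of the main repolarizing currents of heart muscle. Kcnip2 encodes the KChIP subunit that the fast transient outward current requires. It read 9.01, 9.40 and 8.66 in WT hearts 1592, 1624 and 1593 and 3.30, 2.96 and 2.97 in the lungs of these mice. All hearts lay far above all lungs, a difference of 61.7-fold (log2 difference of lungs minus heart -5.95, SE 0.18, adjusted p = 1.63e-11). The size depended on the probe set: other Kcnip2 probe sets gave -3.21 and, below the table median in every tissue, -0.06. Kcnd3, one of the Kv4 pores that KChIP subunits join, was 5.47-fold higher in heart (log2 difference -2.45), and Kcna5, which carries an ultrarapid delayed current, 18.1-fold (log2 difference -4.18). Kcnh2, the ERG pore of the rapid delayed rectifier, was 13.5-fold higher (log2 difference -3.76). Kcnq1 and its partner Kcne1, which form the slow delayed rectifier, were 2.19-fold and 2.90-fold higher.

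Among inward rectifiers, Kcnj3 and Kcnj5 encode the partner subunits of the acetylcholine-activated channel of atrium and pacemaker cells. Kcnj3 read 8.25, 7.96 and 8.63 in WT hearts 1592, 1624 and 1593 and 3.75, 2.83 and 3.01 in the lungs. Again the groups were far apart, by 33.9-fold (log2 difference -5.08, SE 0.30, adjusted p = 1.15e-08), and Kcnj5 differed by 27.4-fold (log2 difference -4.77). Another probe set gave a smaller -2.72 for Kcnj3 and -1.08 for Kcnj5. In lungs both were somewhat higher in the arrays with high atrial markers: Kcnj5 read 4.08 in WT lungs 1592, 3.91 in KO lungs 1603 and 3.64 in KO lungs 1586, against 2.86 to 3.34 in the other 3. Whether cardiac muscle in the lung samples added to this was not tested. The ATP-sensitive pores Kcnj8 and Kcnj11 were 6.11-fold and 3.31-fold higher in heart, and Kcnj12, another strong rectifier of muscle, 6.12-fold. Kcnk3, the acid-sensitive K2P channel TASK-1, was 11.3-fold higher in heart (log2 difference -3.50), and the calcium-activated Kcnn2 and Kcnn1 were 7.86-fold and 2.65-fold higher. Other Kcnk3 probe sets gave smaller differences, -1.70 and -0.91. The low genes Kcnc4, Kcna4, Kcnab3 and Kcnj1 were also called although none passed the table median in any tissue. Other probe sets of Kcnc4, Kcnab3 and Kcnj1, also below the median, gave 0.01, -0.09 and 0.05 and were not called. Kcna4 (log2 difference -0.58, adjusted p = 0.0350) lost its call without WT lungs 1592 (adjusted p = 0.0919), WT lungs 1624 (0.0997) or WT heart 1593 (0.169).

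The genes higher in lungs were led by Kcnj13, Kcnk2 and Kcnmb2. Kcnj13, the weakly rectifying Kir7.1 of ion-transporting epithelia, read 8.27, 7.72 and 7.63 in WT lungs 1592, 1624 and 1593 and 3.84, 3.20 and 3.37 in the hearts. The ranges did not meet, and the difference was 21.2-fold (log2 difference 4.40, SE 0.28, adjusted p = 1.83e-08). Kcnk2, the mechanically gated K2P channel TREK-1, was 20.7-fold higher (log2 difference 4.37) and Kcnk1, the K2P channel TWIK-1, 13.2-fold (log2 difference 3.72). The BK beta subunits Kcnmb2 and Kcnmb4 were 18.4-fold and 5.40-fold higher. Kcne2, a MinK-type subunit that joins KCNQ1 in epithelia, was 11.2-fold higher, Kcnq5, a pore of the KCNQ family, 4.69-fold, and Kcnj15, the inward rectifier Kir4.2, 4.25-fold. Differences under 3-fold were seen for Kcns3, Kcnk5, Kcnk6 and Kcnq1ot1. For genes below the table median in the lower tissue, the signal there may be mostly background, so the fold can understate the difference in RNA. Other probe sets of the called genes, where above the median in lungs or heart, had the same sign in 17 of 17 cases. A probe set above it in only 1 of these tissues has its sign largely set by this filter, so the count adds little. Sizes varied with the probe set: others gave 1.90 for Kcnmb2 and 1.80 for Kcnk1, and another of Kcne1 gave a larger difference, -2.03 against -1.53.

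**Figure D2:**
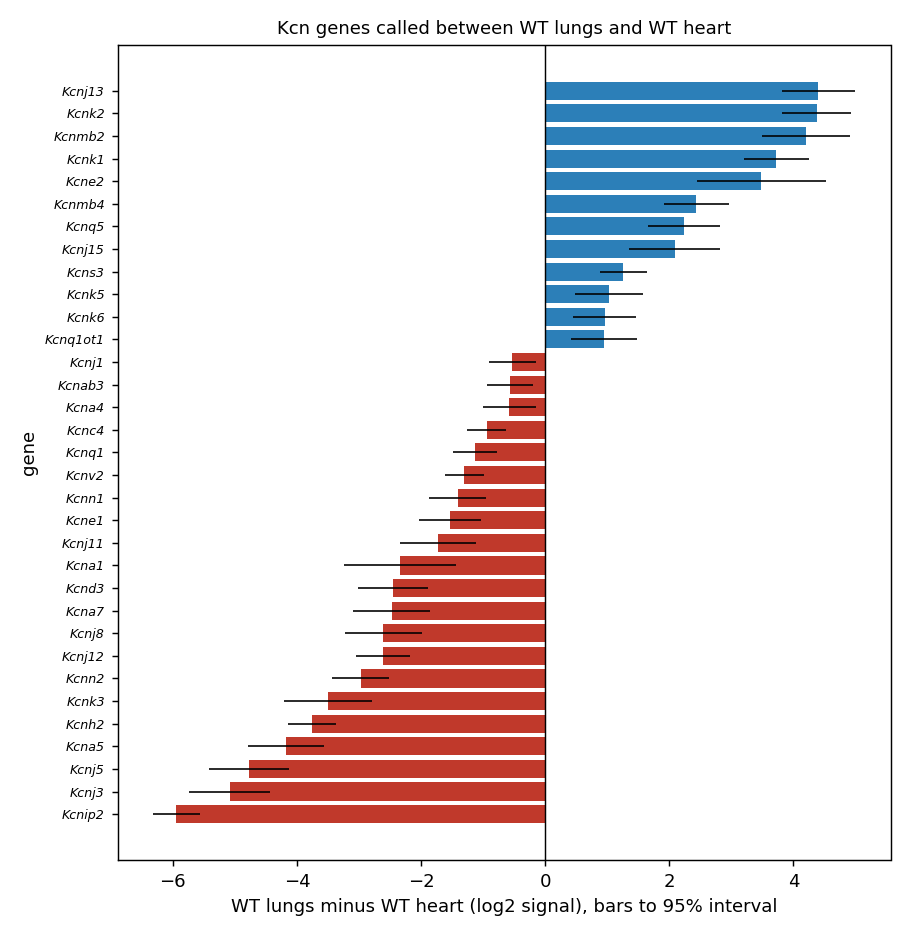
Difference of WT lungs minus WT heart in log2 signal for the 33 Kcn genes called between them; bars start at 0, lines give the 95% interval of the fit, blue is higher in lungs (12 genes) and red higher in heart (21 genes). Kcnj13 (4.40) and Kcnip2 (-5.95) are the ends of the range.

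Cultured skin fibroblasts had fewer channels above the other tissues. WT lungs exceeded WT fibroblasts for 18 of 77 Kcn genes (23.4%, against 16% of all probe sets) and were lower for 4 (5.19%, against 17.8%; 8 genes without KO heart 1602, which enters through the pooled spread). WT heart exceeded them for 23 (29.9%, against 16.1%) and was lower for 6 (7.79%, against 19.5%). These comparisons share arrays with each other and with that of lungs and heart, so their counts are not independent. Only Kcne4, Kcnd1 and Kcnab1 were called higher in fibroblasts than in both organs (3 of 77, 3.90%, against 12.1% of all probe sets). Kcne4, a MinK-type subunit that inhibits KCNQ1 and some Kv1 channels, read 9.19 and 7.92 in WT fibroblasts 1571 and 1623. In WT lungs it read 4.81, 5.25 and 5.35, and in WT heart 4.09, 4.15 and 5.20, all lower than either fibroblast array. The differences were 10.7-fold from lungs (log2 difference -3.42, SE 0.40, adjusted p = 1.24e-05) and 16.8-fold from heart (log2 difference -4.07, SE 0.40, adjusted p = 1.63e-06). Kcnd1, a Kv4 pore, was 3.50-fold and 3.11-fold higher in fibroblasts than in lungs and heart, and Kcnab1, a Kv beta subunit, 3.09-fold and 2.64-fold.

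In turn, 18 genes were called higher in heart than in both other tissues and 11 higher in lungs than in both. The first set (23.4%, against 9.13% of all probe sets) ranged from Kcnip2, 73.7-fold over fibroblasts, and Kcnj3 (46.6-fold) through Kcnq1 (13.7-fold) and Kcnv2 (3.28-fold) to Kcnc4 (1.65-fold). As log2 differences over fibroblasts, other probe sets gave 3.14 and -0.14 for Kcnip2 and 0.32 for Kcnc4, the last 2 not called. Kcna4, Kcnab3 and Kcnj1, called over lungs, were not called over fibroblasts. The second (14.3%, against 9.37%) held Kcnk1 (21.8-fold over fibroblasts), Kcnj13 (21.2-fold), Kcnmb2 (18.3-fold), Kcne2 (11.6-fold) and Kcnk6 (9.46-fold), among others. Kcnk2 differed among all 3 tissues: WT fibroblasts read 5.69 and 6.33, 3.48-fold below lungs and 5.95-fold above heart. Kcnj15, at 4.84 and 5.86 in WT fibroblasts, was 4.92-fold above heart, and its difference from lungs was not called. In all, 42 of the 77 genes (54.5%) were called in at least 1 of the 3 comparisons, near the 52.2% of all probe sets. Of the genes expressed in some tissue, Kcnab2, Kcnip3, Kcnk13 and Kcnn4 were called in none. Between lungs and fibroblasts, Kcnd3 (log2 difference 0.98) lost its call without WT lungs 1592 (adjusted p = 0.0748) or WT fibroblasts 1623 (0.142), and Kcnk5 (log2 difference 0.98) without WT fibroblasts 1623 (0.181).

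Loss of NM1 was compared next. No expressed Kcn gene was called between KO and WT in any tissue: 0 of 23 in lungs, where 0.0301% of all kept probe sets were called, 0 of 23 in heart (0.127%) and 0 of 14 in fibroblasts (0.0549%). With a background this low, a count of 0 is near it and is not a result particular to these genes. At an unadjusted limma p under 0.05 there were 1, 7 and 0 Kcn genes (4.35%, 30.4% and 0%), against 6.96%, 17.0% and 3.33% of all kept probe sets. The median KO minus WT difference over the expressed Kcn genes was -0.13 in lungs, -0.22 in heart and 0.13 in fibroblasts, against -0.06, -0.16 and 0.02 over all kept probe sets. With each of the 141 probe sets taken by itself, none of the 32, 39 and 17 kept in the 3 tissues was called either, and 2, 14 and 0 had an unadjusted p under 0.05.

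**Figure D3:**
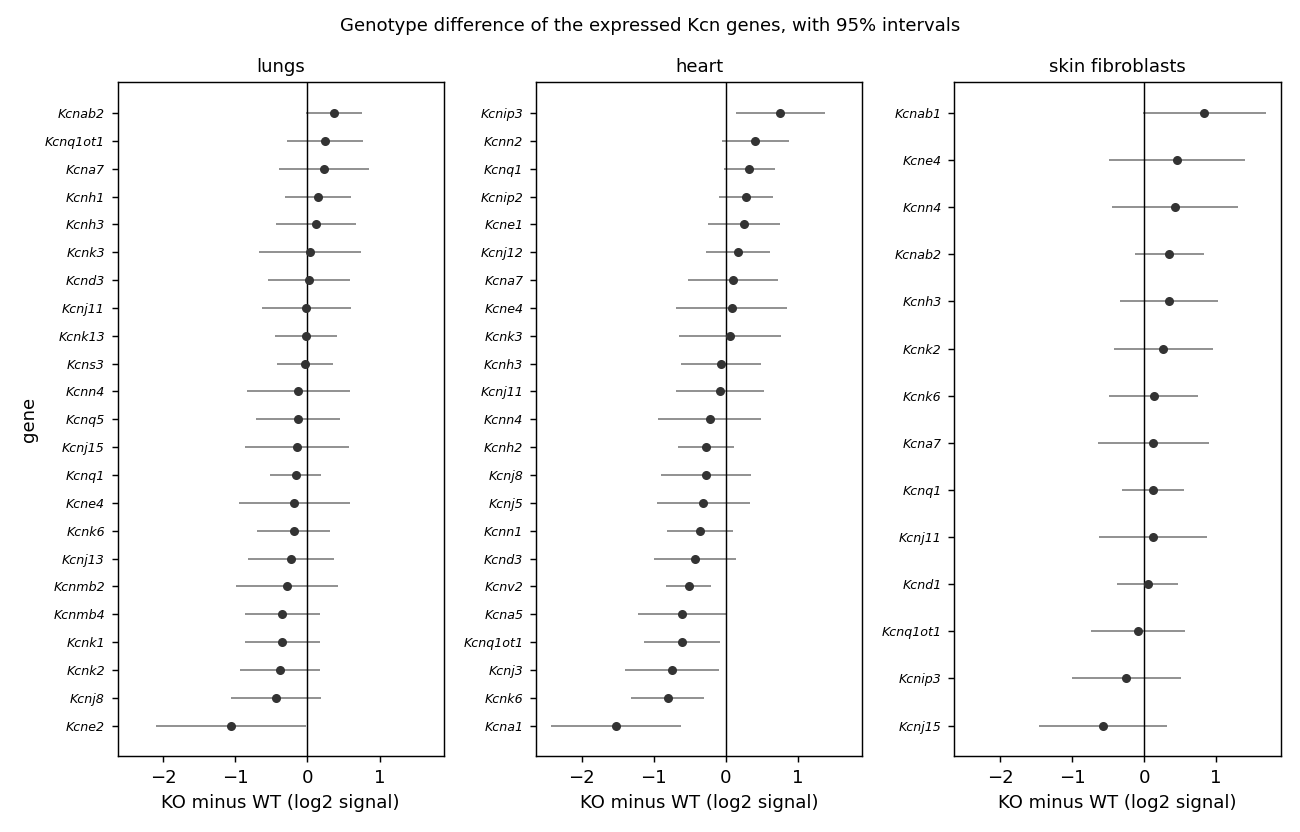
KO minus WT difference in log2 signal of every expressed Kcn gene in lungs (23 genes), heart (23 genes) and skin fibroblasts (14 genes); points are the fitted differences and lines their unadjusted 95% intervals. No gene was called; Kcna1 in heart (-1.53) and Kcne2 in lungs (-1.07) lie farthest from 0.

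In heart, the lowest p-values among the chosen probe sets belonged to Kcna1, Kcnv2, Kcnk6, Kcnip3 and Kcnq1ot1. Kcna1, a Kv1 pore best known from nerve axons, read 4.66, 5.18 and 6.65 in WT hearts 1592, 1624 and 1593 and 3.68, 4.84 and 3.39 in KO hearts 1602, 1603 and 1586. The groups overlapped, since KO 1603 lay above WT 1592. The difference was -1.53 (SE 0.42, 95% interval -2.43 to -0.62, limma adjusted p = 0.130). Of its 3 other probe sets, those at -1.05 and -1.10 had the same sign and the third, at 0.30, lay below the median. Kcnv2, an electrically silent subunit that joins other Kv pores, read 4.18, 4.30 and 4.18 in WT and 3.47, 4.08 and 3.55 in KO hearts. All KO hearts were below all WT hearts, by -0.52 (SE 0.15, adjusted p = 0.134). Kcnk6, the K2P channel TWIK-2, read 6.24, 6.16 and 6.58 in WT and 5.13, 5.87 and 5.56 in KO hearts, also without overlap (-0.81, SE 0.24, adjusted p = 0.144).

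For these 3 genes KO heart 1603 lay nearest to WT, and it was also the only KO heart whose atrial marker mean, 9.95, was in the WT range. Kcna5 was also highest in that KO heart, with 6.28, 7.25 and 6.22 in 1602, 1603 and 1586 against 6.52, 7.55 and 7.50 in WT (-0.61, SE 0.28, adjusted p = 0.293). Kcnj3, whose channel is concentrated in atrial muscle, read 7.0, 7.96 and 7.65 in KO against 8.25, 7.96 and 8.63 in WT hearts (-0.74, SE 0.30, adjusted p = 0.243). Its partner Kcnj5 differed by less (-0.31). Among the KO hearts, mesothelium markers were also highest in 1603, with means of 3.87, 6.46 and 4.13 in 1602, 1603 and 1586. In WT hearts 1592, 1624 and 1593 these means were 7.51, 5.69 and 5.80, an order that differed from that of the atrial markers. Without KO hearts 1602 and 1586, which leaves 1603 as the only KO heart, the differences were -0.65 for Kcna1, -0.14 for Kcnv2 and -0.46 for Kcnk6. Without KO heart 1603, whose removal had to enlarge them because it lay nearest to WT, they were -1.96, -0.71 and -0.98, and all 3 were then called (adjusted p = 0.0218, 0.0119 and 0.0449). The share of all probe sets called in that fit was not computed, so the calls are not shown to be particular to these 3 genes. Over all alternatives their adjusted p ranged from 0.0218 to 0.927 for Kcna1, from 0.0119 to 0.969 for Kcnv2 and from 0.0449 to 0.881 for Kcnk6. Neither fit separates the amount of atrial or mesothelial tissue from genotype, and the part of these tissues in the differences was not tested.

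Kcnip3, a calcium sensor that can act as a KChIP subunit and as a repressor in the nucleus, read 5.64, 4.36 and 4.13 in KO and 3.88, 3.91 and 4.07 in WT hearts. The groups did not overlap (0.76, SE 0.29, adjusted p = 0.217), and KO 1602 held most of the difference, which was 0.29 without it. Its other probe set, below the table median, went the opposite way (3.16 in KO and 3.55 in WT hearts, -0.39). Kcnq1ot1, the long antisense RNA transcribed from within Kcnq1 and known for silencing imprinted neighbours, read 5.25, 6.10 and 6.33 in KO and 6.52, 6.60 and 6.39 in WT hearts. It differed by -0.61 (SE 0.25, adjusted p = 0.238) and by -0.29 without KO 1602, the heart with the low upper quartile. Its 5 other probe sets gave between -0.70 and 0.20. Kcnq1 itself read 7.89, 8.24 and 7.86 in KO and 7.55, 7.84 and 7.62 in WT hearts (0.33, SE 0.16, adjusted p = 0.327). In total 5 of 23 expressed genes had KO and WT hearts that did not overlap (21.7%, against 17.6% of all kept probe sets), Kcnip3 and Kcnq1 with KO above and Kcnv2, Kcnk6 and Kcnq1ot1 with KO below.

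Of the other genes given above for the comparison with lungs, Kcnip2 differed between KO and WT hearts by 0.28 (95% interval -0.10 to 0.66, limma adjusted p = 0.422), Kcnh2 by -0.28, Kcnd3 by -0.42, Kcnj12 by 0.17 and Kcnk3 by 0.06 (95% interval -0.65 to 0.77). Kcnj8, Kcnj11, Kcnn1, Kcnn2 and Kcne1 differed by -0.28, -0.09, -0.36, 0.41 and 0.25. Kcna7, a Kv1 gene not named above, was also lower in WT lungs than in WT heart (-2.47, limma adjusted p = 1.05e-05). Between KO and WT hearts it differed by 0.10. The intervals of all 11 reach past 0.5 log2 units, and a missing call does not show equal levels. The probe sets of Kcnk3 disagreed in size: another one averaged 5.96 in KO and 5.23 in WT hearts, a difference of 0.72 with the lowest adjusted p of any Kcn probe set in the KO comparisons, 0.0831. Over the expressed Kcn genes, 10 of 16 other probe sets above the median in heart had the sign of the chosen one. Those with the opposite sign included probe sets of Kcne1 (-0.91), Kcnn1 (0.39) and Kcnj5 (0.29).

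In lungs, Kcne2 had the lowest p among the chosen probe sets. It read 6.09, 6.54 and 6.87 in WT lungs 1592, 1624 and 1593 and 6.87, 5.39 and 4.03 in KO lungs 1602, 1603 and 1586. KO 1602 matched the highest WT lung and the other KO lungs lay below all of them (-1.07, SE 0.48, 95% interval -2.11 to -0.03, limma adjusted p = 0.711). The low KO lungs, 1603 and 1586, were those with adipocyte marker means of 8.03 and 8.51. Without KO lungs 1602 the difference was -1.79 and was called (adjusted p = 0.0498, the lowest over its alternatives), and without the 3 lungs that held adipocyte and atrial transcripts, which leaves KO 1602 alone against WT 1624 and 1593, it was 0.17. Kcnab2, a Kv beta subunit also found in blood cells, read 3.87, 4.33 and 4.49 in KO and 3.72, 3.88 and 4.01 in WT lungs (0.37, SE 0.18, adjusted p = 0.713). It was likewise highest in KO 1603 and 1586, and differed by -0.07 without those 3 lungs. Kcnj8, the ATP-sensitive pore of vascular smooth muscle and pericytes, read 4.26, 5.36 and 5.05 in KO and 5.34, 5.34 and 5.32 in WT lungs. Only KO 1602 stood clearly below the rest (-0.44, SE 0.29, adjusted p = 0.736), and it also had the lowest smooth muscle and pericyte marker means of the 6 lungs, 5.62 and 6.13. Its ventricular muscle, atrial muscle and adipocyte marker means, 4.76, 5.35 and 2.93, were the lowest of the 6 lungs too. Kcnk2 and Kcnk1 differed by -0.38 and -0.35 (adjusted p = 0.737 for each) and by 0.04 and 0.12 without the 3 lungs, values that again rest on the single KO lung 1602. Another Kcnk1 probe set above the table median averaged 4.97 in WT and 3.92 in KO lungs, a larger difference of -1.05 (limma adjusted p = 0.711). Over the expressed Kcn genes, 8 of 9 other probe sets above the median in lungs had the sign of the chosen one. How far these other cell types set the lungs' values was not tested further. In none of the 23 expressed genes were KO and WT lungs free of overlap (0%, against 11.5% of all kept probe sets).

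**Figure D4:**
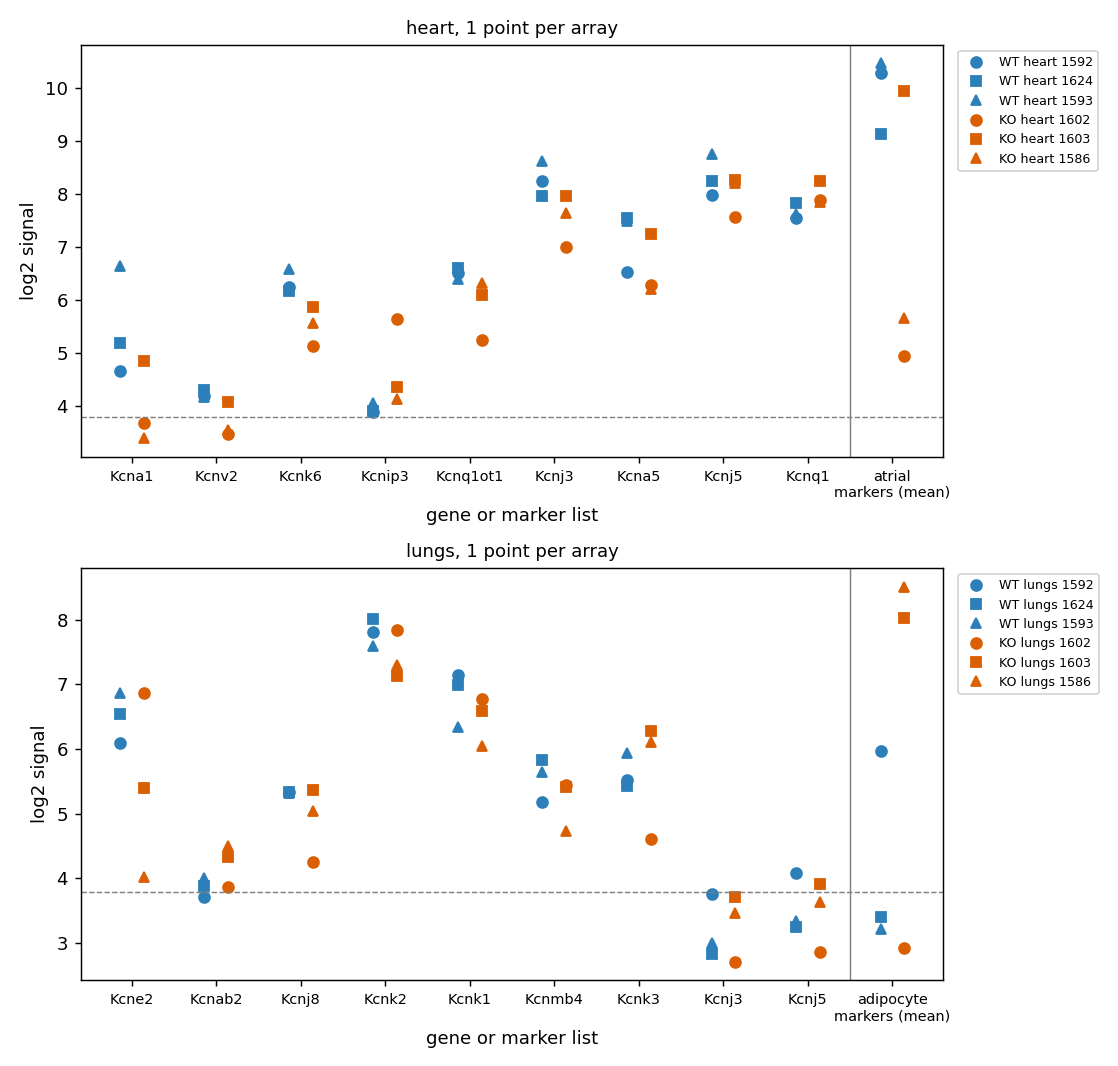
Log2 signal of 9 Kcn genes in the 6 hearts (top) and of 9 in the 6 lungs (bottom), 1 point per array, with the mean of the atrial or the adipocyte markers of the same arrays at the right; blue is WT, orange KO, symbols give the mouse, and the dashed line is the table median of 3.79. KO heart 1603 lies nearest to WT for Kcna1, Kcnv2 and Kcnk6, and KO lungs 1603 and 1586 are lowest for Kcne2 and highest in adipocyte markers.

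In fibroblasts, with 2 arrays per genotype, Kcnab1 read 7.03 and 5.36 in KO 1584 and 1550 and 5.12 and 5.60 in WT 1571 and 1623. Only KO 1584 stood out (0.84, SE 0.39, 95% interval -0.01 to 1.69, limma adjusted p = 0.9999). Kcnj15 read 4.61 and 4.95 in KO and 4.84 and 5.86 in WT (-0.57, SE 0.41). Kcnn4, the intermediate-conductance calcium-activated channel of fibroblasts and immune cells, read 5.01 and 4.51 in KO and 3.73 and 4.93 in WT (0.43, SE 0.41). It differed by -0.17 without WT 1571, which set the sign. Kcnab2 and Kcnh3, an ether-a-go-go pore, differed by 0.35 and 0.34. Kcne4, of the 3 genes called higher in fibroblasts than in both organs the one with the greatest difference, read 8.88 and 9.13 in KO and 9.19 and 7.92 in WT (0.45, SE 0.44). The arrays of 2 of 14 genes did not overlap between genotypes, Kcnh3 higher and Kcnip3 lower in KO (14.3%, against 32.5% of all kept probe sets).

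Whether the genotype difference itself varied between tissues was tested by contrasts within the same model. None of 35 Kcn genes was called between lungs and heart (0% of all probe sets), none of 26 between lungs and fibroblasts (0.0197%) and none of 28 between heart and fibroblasts (0.0203%). At an unadjusted limma p under 0.05 there were 3, 0 and 7 Kcn genes (8.57%, 0% and 25%), against 7.22%, 4.37% and 7.77% of all kept probe sets. The lowest p-values were those of Kcnq1ot1 between lungs and heart (0.86, SE 0.35, adjusted p = 0.676) and of Kcnv2 between heart and fibroblasts (-0.69, SE 0.23, adjusted p = 0.524).

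Genes that work beside potassium channels were counted from 4 lists: 19 partner subunits and regulators (13 measured), 18 other channels and transporters of the cardiac action potential (12 measured), 10 potassium pumps and cotransporters (6 measured) and 11 transcription factors that act on cardiac potassium channel genes (10 measured). None was called by limma between KO and WT in any tissue, where 0.0301%, 0.127% and 0.0549% of all kept probe sets were called. An unadjusted limma p under 0.05 was found for 1 of 25 kept in lungs, 4 of 33 in heart and 0 of 22 in fibroblasts. Of all kept probe sets, 6.96%, 17.0% and 3.33% had such a p in lungs, heart and fibroblasts. In heart the medians of the 4 lists over measured genes were -0.14, 0.04, -0.22 and -0.25. The median was -0.04 over all probe sets and -0.16 over the kept ones. All 6 pumps and cotransporters and all 10 transcription factors measured were kept in heart. Cacna1h, a T-type calcium channel, differed by -1.62 (limma adjusted p = 0.128), and Etv1, a transcription factor of atrium and conduction system, by -1.37 (adjusted p = 0.181). Between WT lungs and WT heart, 10 of 12 action potential genes were called lower in lungs and 1 higher; of all probe sets, 15.2% were called lower and 18.9% higher. Ryr2, the calcium release channel, differed by -6.15 and Cacna1c, the L-type calcium channel, by -4.23. Of the partners, 2 were lower and 6 higher in lungs. Abcc8, the sulphonylurea receptor that joins Kcnj11, was lower by -3.47, and Lrrc26, a BK gamma subunit of secretory epithelia, was higher by 3.86. Of the transcription factors 5 were lower in lungs, Nkx2-5 by -3.90 and Tbx20 by -5.82 among them, and 2 higher. Pumps and cotransporters were split 2 and 2, Slc12a2, the sodium, potassium and chloride cotransporter of secretory epithelia, being higher in lungs by 2.27.

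Several Kcn genes are near neighbours in the RefSeq gene order (GRCm38.p6), and the neighbours did not always share a tissue. Kcna5 and Kcna1, with no protein-coding gene between them, both passed the table median only in heart, while Kcna6 on the other side of Kcna1 passed nowhere. Kcne2 and Kcne1, with 3 genes between them, passed only in lungs and only in heart, respectively. Kcnj15 passed in lungs and fibroblasts beside Kcnj6, which passed nowhere, and Kcnj5 passed in heart beside Kcnj1, which passed nowhere.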

How the data were processed

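RNA from lungs, heart and skin fibroblasts was hybridised to 16 Affymetrix arrays. The values the authors deposited are log2 signals, read as such from their range; the submitters' processing notes name Partek 6.4, with background correction and normalization not given in the sources used here. With no detection calls or depth, precision is limited by how many arrays there are. Array medians lay between 3.65 and 3.93, and the 2 most alike arrays differed by 0.190 on average. Of 45141 entries, 104 controls were set aside. The annotation gives 1 gene for 28898 probe sets, several for 551 and none for 15588; 2 probe sets shared by Kcnj15 and another gene were left out, all 141 Kcn probe sets matched RefSeq by gene number, and Kcn genes without a probe set of their own were not analysed here.

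Differences were tested two-sided in limma 3.58.1 (R 4.3.3), in 1 model of 6 group means (10 residual and 3.53 prior degrees of freedom), tested on simulated data first. For KO against WT and for contrasts of genotype effects, probe sets above the median of the table in a compared tissue were kept; tissue comparisons used all. Benjamini-Hochberg adjustment ran over all probe sets tested. The p-values measure the spread between these samples, pooled over tissues. An exact test within a tissue could not go below p = 0.1 (3 against 3) or 0.333 (2 against 2). Full statistics went to called genes, the 5 expressed genes with the lowest p per tissue, the 10 largest called differences per tissue comparison, and channels with known roles. The members, lists and rules were chosen with earlier results of these data known. Lungs and heart pair by mouse number; the deviations of a mouse's lungs and heart from their group means correlated at 0.0597 to 0.128 over probe sets. Alternatives covered normalization, filters, probe set choice, the replicate block, the moderation and left-out samples.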

Additional observations from a re-analysis of the deposited data

How the results depend on the processing

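Of the counts of Kcn genes recomputed under the alternatives, 327 stayed within 1.5 times of the reported count and 8 moved further. Leaving out 1 array at a time, Kcn genes called between KO and WT ranged from 0 to 1 in lungs (1, Kcne2, without KO lungs 1602) and from 0 to 3 in heart (3, Kcna1, Kcnv2 and Kcnk6, without KO heart 1603). Those called lower in WT lungs than in WT fibroblasts ranged from 3 to 8, the highest without KO heart 1602, and were 7 when only the arrays of the comparison were fitted, against 4. For these alternative fits the share of all probe sets called was not computed, so their counts have no background beside them. With the expression level set 1 log2 unit above the median, 14, 15 and 7 genes passed in lungs, heart and fibroblasts, and when every array had to pass, 9 did in fibroblasts. Single-gene KO differences changed sign for Kcne2 (0.17), Kcnab2 (-0.067), Kcnk2 (0.037) and Kcnk1 (0.12) without the 3 lungs that held adipocyte and atrial transcripts, a fit that rests on KO lungs 1602 as the only KO lung, assumed to vary like the other groups, and for Kcnn4 in fibroblasts, which ranged from -0.17 without WT 1571 to 1.03 without WT 1623. Tissue differences of named genes kept sign and call in 1253 cases and lost the call in 9, of Kcna4, Kcnd3 and Kcnk5, and 3 others had no test because the gene fell below the filter. Single-gene KO differences stayed on their side in 336 cases, became called in 4 and had no test in 10, where a filter removed the gene or its probe sets were averaged. With the mouse as a replicate block (consensus correlation 0.0542) the counts for WT lungs against WT heart were 12 and 21 and those for KO against WT 0, and no other count changed. Quantile normalization moved the median KO difference of kept probe sets in heart from -0.16 to -0.02. A fit to the compared arrays alone was not run for contrasts between tissues. The cause of each change was not tested.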
